A study of Mus musculus with 4 samples.

Results

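The 10 genes Atoh1, Barhl1, Tlx3, Insm1, Neurod1, Neurod2, Nhlh1, Nhlh2, Pax6 and Zic1 encode transcription factors of the cerebellar granule cell lineage, and were chosen by gene symbol for that role, 10 of the 32285 features measured. They were read in single cells from subdural meninges peeled off the cerebellum of young mice, a preparation in which granule cells of the cerebellar surface were also captured. NdpKO mice lacked Ndp and carried Neurod2-SmoA1 on 1 allele (NdpKO; Neurod2-SmoA1+/-), and NdpWT mice carried Neurod2-SmoA1+/- with an intact Ndp, both on a C57/BL6 background. Each genotype was measured in 2 libraries, each a pool of 5 cerebella drawn from 3 litters, and the labels give the age once as P6-P8 and once as P7 to P9. SmoA1 is a permanently active form of Smoothened, the membrane protein that passes on Hedgehog signals, and here a Neurod2 promoter drives it. All 4 libraries carried the transgene, so its effect cannot be read from this design. The labels say that NdpKO and NdpWT runs were matched by litter, without saying which library matches which.

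Granule neurons, the most numerous neurons of the cerebellum, are born from progenitors in its outermost layer, directly under the meninges. The progenitors divide in response to Sonic hedgehog, leave the cell cycle, extend processes and migrate inwards. Successive transcription factors mark this path: Atoh1 keeps the progenitor state, Insm1 acts around the last divisions, and Neurod1, Neurod2, Nhlh1 and Nhlh2 belong to neuronal differentiation. Pax6 and Zic1 are kept along the whole path, and Zic1 is also a gene of meningeal cells. Norrin, the product of Ndp, is secreted and acts on blood vessel cells through the receptor Fzd4. The comparison asks how these factors stood in granule cells and fibroblasts when norrin was missing.

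All 10 genes were found in the GENCODE M21 annotation (GRCm38, the assembly also called mm10). Atoh1 (ENSMUSG00000073043, chromosome 6, 64729125 to 64731245, plus strand) and Insm1 (ENSMUSG00000068154, chromosome 2, 146221921 to 146225020, plus strand) have 1 exon each. Barhl1 (ENSMUSG00000026805) lies on chromosome 2 from 28907679 to 28916668 on the minus strand, Neurod1 (ENSMUSG00000034701) on chromosome 2 from 79452521 to 79456751 on the minus strand, and Pax6 (ENSMUSG00000027168) on chromosome 2 from 105668900 to 105697364 on the plus strand. Neurod2 (ENSMUSG00000038255) occupies 98325415 to 98329648 and Tlx3 (ENSMUSG00000040610) 33200752 to 33203589, both on the minus strand of chromosome 11. Nhlh1 (ENSMUSG00000051251) lies on chromosome 1 from 172052292 to 172057573 on the minus strand, Nhlh2 (ENSMUSG00000048540) on chromosome 3 from 102010076 to 102015492 on the plus strand, and Zic1 (ENSMUSG00000032368) on chromosome 9 from 91358058 to 91365810 on the minus strand. Neurod1 lies within Cerkl on the same strand, and Zic1 shares 3398 bases with Zic4 and Pax6 shares 1431 bases with Pax6os1 on opposite strands. No source used here says how the counting treated tags in these shared stretches, and any effect on the counts was not tested.

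Of the deposited barcodes, 5599 and 10676 NdpKO cells and 9079 and 12561 NdpWT cells were kept, from libraries of 123270687 and 125981161 UMIs in NdpKO and 114363848 and 121735724 UMIs in NdpWT. A UMI (unique molecular identifier) stands for 1 captured transcript, and a level is given in CPM, a gene's UMIs per 1000000 UMIs of the same cells and library. NdpKO replicate 1 stood apart in quality: 21.8% of its barcodes exceeded 10% mitochondrial UMIs, against 7.58% to 10.4% in the other three, and its kept cells had a median of 14296 UMIs, against 7220 to 9464. Ndp itself had 42 and 55 UMIs over all barcodes in NdpKO, against 219 and 158 UMIs in NdpWT, or 0.341 and 0.437 CPM against 1.92 and 1.30 CPM. Library pairs shared 48 to 98 barcodes, 0.372% to 0.594% of the smaller library.

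Granule lineage cells were clustered with the 10 genes left out, so that stages were set without them, and 5 groups were tested. The first, led by C1ql1, had high summed levels of progenitor markers (3287 to 3874 CPM) and low levels of mitotic markers, but only 2 progenitor markers among its 50 leading genes, and it is called the C1ql1 group. The others resembled, by their markers, S phase cells, mitotic cells, newly postmitotic neurons and maturing neurons, and carry those names below as likenesses. They held 157 and 348, 270 and 766, 295 and 721, 279 and 1103, and 136 and 435 NdpKO cells, against 287 and 786, 582 and 879, 548 and 668, 1036 and 745, and 544 and 171 NdpWT cells. Clusters of low depth (1000 and 2228 NdpKO cells, 1881 and 2407 NdpWT cells) were set aside. Their summed fibroblast markers were 1258 to 1755 CPM per cluster, against 293 to 456 CPM in the tested clusters.

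The 3 genes of the progenitor end, Atoh1, Barhl1 and Tlx3, were highest in the C1ql1 group in all 4 libraries. Atoh1, the basic helix-loop-helix (bHLH) factor without which no granule cells form, had 92.3 and 83.3 CPM in NdpKO, against 97.8 and 91.5 CPM in NdpWT in the C1ql1 group. It was lower in S phase cells (50.8 to 62.6 CPM over the 4 libraries) and mitotic cells (44.7 to 68.6 CPM), whose ranges overlapped each other. Levels were 7.07 to 12.5 CPM in newly postmitotic neurons and 2.37 to 6.08 CPM in maturing neurons, so that within each library the C1ql1 group stood 15.1 to 41.3 times above the maturing neurons. Endothelial cells had 0.485 to 3.62 CPM and mural cells of vessel walls 0.536 to 8.11 CPM. The level in maturing neurons was thus close to background, and the size of this ratio is uncertain. Barhl1, a homeodomain factor that acts in granule cell migration and survival, had 519.7 and 374 CPM in NdpKO, against 382 and 305 CPM in NdpWT in the C1ql1 group and 107 to 164 CPM in maturing neurons. Its ranges overlapped between every neighbouring pair of stages after the first. Tlx3, a homeodomain factor best known from excitatory neurons of the mouse spinal cord, had 255 and 217 CPM in NdpKO, against 280.1 and 271 CPM in NdpWT in the C1ql1 group and 96.8 to 152 CPM in maturing neurons. The slopes of Barhl1 and Tlx3 were shallow, 2.51 to 3.56 times and 1.84 to 2.24 times from the highest to the lowest stage, and both stayed above 90 CPM in neurons that had left the cycle.

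Insm1, a zinc finger factor of dividing neuronal precursors, was highest in mitotic cells in all 4 libraries, with 575 and 373 CPM in NdpKO, against 560.5 and 306 CPM in NdpWT. It was 3.64 to 3.99 times lower in maturing neurons (84 to 153 CPM) and at intermediate levels in the C1ql1 group (160.2 to 288 CPM) and in S phase cells (245 to 426 CPM). The libraries with replicate number 1 were above those with number 2 in both genotypes and all 5 stages, so the spread within a genotype exceeded the difference between genotypes.

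Nhlh1 and Nhlh2, a pair of related bHLH factors of young neurons, were highest in newly postmitotic neurons in all 4 libraries. Nhlh1 had 382 and 297 CPM in NdpKO, against 304 and 309 CPM in NdpWT there, 3.61 to 4.35 times its level in S phase cells (74.8 to 87.9 CPM). Nhlh2 had 523 and 381 CPM in NdpKO, against 492 and 376 CPM in NdpWT there and 95.5 to 117 CPM in the C1ql1 group. Both were lower again in maturing neurons, at 127 to 211 CPM for Nhlh1 and 228 to 373 CPM for Nhlh2, without overlap with the newly postmitotic range. Nhlh2 was already at 172 to 274 CPM in mitotic cells, a range that overlapped the one in maturing neurons, whereas Nhlh1 stayed at 94.6 to 112 CPM in mitotic cells.

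Neurod1 and Neurod2 are close relatives that promote neuronal differentiation, and both were highest in maturing neurons. Neurod1 had 3345 and 2752 CPM in NdpKO, against 3144 and 2434 CPM in NdpWT in maturing neurons. Newly postmitotic neurons had nearly as much (1979.5 to 3056 CPM), and the C1ql1 group had 342 to 506 CPM. Neurod2 had a steeper gradient than Neurod1: its level in maturing neurons was 28.3 to 62.1 times that of the C1ql1 group, against 5.61 to 7.11 times for Neurod1. In NdpWT the C1ql1 group had as little as 4.98 CPM of Neurod2, below the highest endothelial level of 5.59 CPM. The size of the Neurod2 ratio is thus uncertain. Neurod2 in maturing neurons also exceeded newly postmitotic neurons without overlap. Taken as a mark of where the Neurod2 promoter is active, these levels were highest at the late end of the series. Neurod2 tags were present in every stage, but close to background in the C1ql1 group of NdpWT.

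Pax6, a paired-box factor, and Zic1, a zinc finger factor related to the GLI proteins, were high throughout. Pax6 had 366 to 449 CPM in S phase cells and 915 and 708 CPM in NdpKO, against 762 and 741 CPM in NdpWT in maturing neurons, a difference of only 1.70 to 2.04 times. Zic1 had 533 to 682 CPM in S phase cells and 2369 and 1803 CPM in NdpKO, against 1713 and 1892 CPM in NdpWT in maturing neurons, 3.08 to 3.55 times higher. In both genes the C1ql1 group, S phase cells and mitotic cells overlapped one another.

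**Figure D1:**
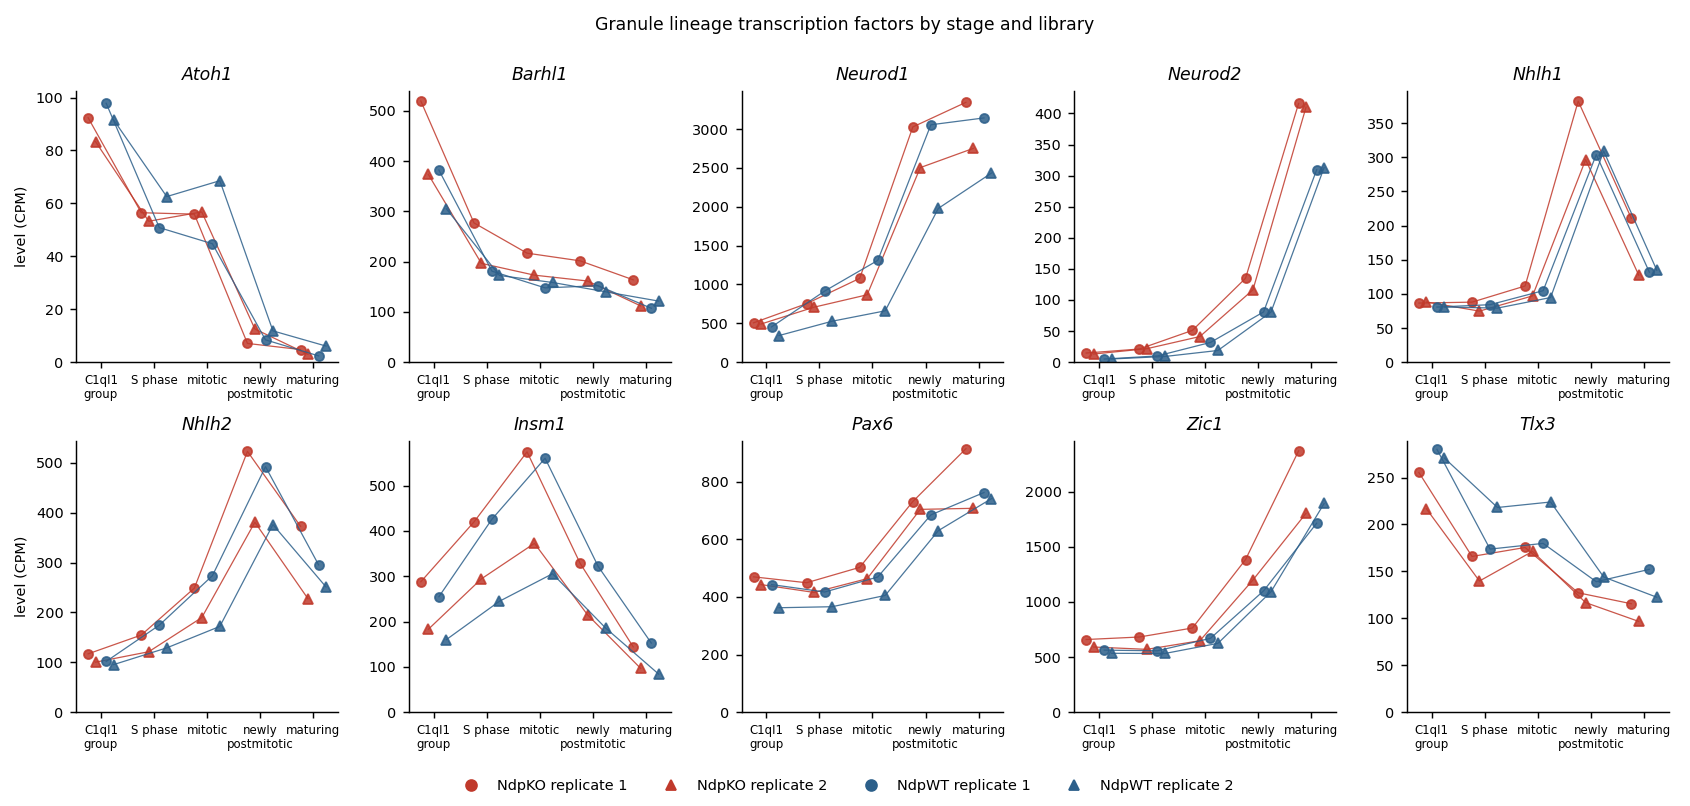
Level of each of the 10 genes (CPM, linear axis from 0) in 5 granule lineage stages, with 1 point per library, NdpKO in red left of NdpWT in blue, circles for replicate 1 and triangles for replicate 2, and lines joining the stages of 1 library. Atoh1, Barhl1 and Tlx3 were highest in the C1ql1 group, Insm1 in mitotic cells, Nhlh1 and Nhlh2 in newly postmitotic neurons, and Neurod1, Neurod2, Pax6 and Zic1 in maturing neurons.

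Between genotypes, no gene of the 10 passed the test in any stage. Neurod2 had the log2 change of greatest size in the C1ql1 group, S phase cells, mitotic cells and newly postmitotic neurons, and Tlx3 had it in maturing neurons, where Neurod2 was close behind in the other direction. The edgeR quasi-likelihood test with Benjamini-Hochberg adjustment called 0 of 10 in each of the 5 stages, beside 0.0789% of all tested genes in the C1ql1 group, 0.0154% in S phase cells, 0.0239% in mitotic cells and 0% in newly postmitotic and in maturing neurons. At an unadjusted p under 0.05 it found 1, 3, 2, 1 and 2 of the 10, beside 4.22%, 3.36%, 2.52%, 2.95% and 3.02% of all tested genes. DESeq2 called 0 of 10 in each stage, beside 0, 3, 7, 0 and 0 of all tested genes. Both NdpKO libraries lay above both NdpWT libraries for 5, 3, 2, 4 and 1 of the 10, beside 17.2%, 16.3%, 14.5%, 17.3% and 16.1% of all tested genes. Both lay below for 1 of the 10 in every stage, beside 13.9%, 12.1%, 12.2%, 13.2% and 14.3%. The median log2 change of the 10 was 0.16, 0.02, 0.08, 0.11 and 0.12 in the 5 stages, beside medians of all tested genes within 0.01 of 0.

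Neurod2 was higher in both NdpKO libraries than in both NdpWT libraries in all 5 stages. In the C1ql1 group it had 14.7 and 13.1 CPM in NdpKO, against 4.98 and 5.13 CPM in NdpWT, from 38 and 49 UMIs in NdpKO, against 16 and 35 UMIs in NdpWT, a log2 change of 1.42 ± 0.32 (SE, n = 2 libraries per genotype, adjusted p = 0.101). In S phase cells it had 21.1 and 21.6 CPM in NdpKO, against 9.99 and 9.11 CPM in NdpWT, a log2 change of 1.14 ± 0.20 (adjusted p = 0.0614). Neither passed the threshold of 0.05 in this fit, which has no replicate block. Macrophages, which should lack the gene, had 3.48 and 2.79 CPM in NdpKO, against 2.18 and 1.8 CPM in NdpWT, from 28 and 13 UMIs in NdpKO, against 24 and 12 UMIs in NdpWT, also higher in NdpKO without overlap. Endothelial cells had 1.62 and 4.46 CPM in NdpKO, against 5.59 and 1.81 CPM in NdpWT, so the NdpWT level in the C1ql1 group was below the highest endothelial level. Mitotic cells had 51.1 and 41.2 CPM in NdpKO, against 31.7 and 18.8 CPM in NdpWT, with a log2 change of 0.84 ± 0.26 and a wide gap between the NdpWT libraries. In newly postmitotic neurons the values were 135 and 116 CPM in NdpKO, against 80.7 and 80.6 CPM in NdpWT, a log2 change of 0.61 ± 0.13. In maturing neurons, where the gene is most abundant, they were 416 and 410.1 CPM in NdpKO, against 309 and 313 CPM in NdpWT, a log2 change of 0.40 ± 0.14. Adjusted p was 1, 1 and 0.998 in these last 3 stages. By unadjusted p Neurod2 ranked 20 of 11411, 6 of 12990, 80 of 12531, 9 of 12517 and 80 of 10547 tested genes in the 5 stages. With no filter on low counts, adjusted p was 0.0176, 0.000304, 0.0021, 0.0373 and 0.975, beside 0.251%, 0.255%, 0.26%, 0.139% and 0.106% of genes called. In mitotic cells the log2 change was 1.31 without NdpWT replicate 1 and 0.49 without NdpWT replicate 2. In S phase cells it was 1.05 without NdpWT replicate 2.

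The Neurod2 change was larger in size at the early than at the late end, but this too missed the threshold. Its change in maturing neurons minus that in the C1ql1 group was -1.001 ± 0.253 on the log2 scale (adjusted p = 0.224, 0.0164% of genes called, 4.89% at an unadjusted p under 0.05). In cells thinned to 2000 UMIs each, the share with a Neurod2 UMI was 53 and 51% in NdpKO, against 44.7 and 41.9% in NdpWT among maturing neurons and 23.4 and 22.2% in NdpKO, against 15 and 14.6% in NdpWT among newly postmitotic neurons. Among macrophages, which should lack the gene, it was 0.752 and 0.243% in NdpKO, against 0.542 and 0% in NdpWT, where 0 of 727 cells allows a share of up to 0.413%. Unthinned shares were 95.6 and 89.4% in NdpKO, against 86 and 73.1% in NdpWT among maturing neurons, and 64.5 and 53.2% in NdpKO, against 45 and 37.6% in NdpWT among newly postmitotic neurons. Thinning left out 4 and 6 NdpKO and 7 and 4 NdpWT maturing neurons, and 1 and 10 NdpKO and 24 and 10 NdpWT newly postmitotic neurons. Unthinned macrophages gave 4.75 and 2.67% in NdpKO, against 1.95 and 1.38% in NdpWT. Median depth was 11029 and 7114 UMIs in NdpKO and 8518 and 5654 UMIs in NdpWT for maturing neurons, and 19062 and 10625 UMIs in NdpKO and 11135 and 8718 UMIs in NdpWT for macrophages.

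By subcluster, both NdpKO libraries were above both NdpWT libraries for Neurod2 in 9 of 9, which share libraries and so are not independent. The C1ql1 group and the maturing neurons are each a single subcluster, so their stage results are counted again here. The share of all genes with this pattern was not computed. The makeup of a stage also moved with genotype. The later of the 2 newly postmitotic subclusters held 65.2% and 67.4% of the NdpKO cells and 50.4% and 46.8% of the NdpWT cells of that stage. Neurod2 in that later subcluster was 171 and 148 CPM in NdpKO, against 125 and 127 CPM in NdpWT, and in the earlier one 75.9 and 60.2 CPM in NdpKO, against 41 and 43.6 CPM in NdpWT. The summed level of 16 maturing granule neuron markers was 673 and 585 CPM in NdpKO, against 487 and 552 CPM in NdpWT in the C1ql1 group. S phase cells had 688 and 662 CPM in NdpKO, against 609 and 619 CPM in NdpWT, again higher in NdpKO, whereas in mitotic cells the genotypes overlapped, with 807 and 711 CPM in NdpKO, against 733 and 661 CPM in NdpWT. In newly postmitotic neurons the sum was 2116 and 2071 CPM in NdpKO, against 1789 and 1759 CPM in NdpWT, and in maturing neurons 4764 and 4608 CPM in NdpKO, against 4028 and 4206 CPM in NdpWT, also with no overlap. The part of these shifts in the Neurod2 difference was not tested. In the shallow clusters that were set aside, the genotypes overlapped in 3 of 4: the shallow S phase cluster had 13.3 and 9.1 CPM in NdpKO, against 13.3 and 13.2 CPM in NdpWT, and the shallow newly postmitotic cluster 82.3 and 96.9 CPM in NdpKO, against 100.5 and 47.8 CPM in NdpWT. The interneuron-like cluster, a lineage outside the granule cells that also uses Neurod2, had 328 and 255 CPM in NdpKO, against 237 and 264 CPM in NdpWT, again with overlap.

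Because Neurod2 and, in the other direction, Tlx3 were the genes whose genotypes did not overlap in any stage, their proximal promoters are shown, with that of Atoh1 from the other end of the Neurod2 gradient. Each is the 250 bases before the transcription start in RefSeq (build GRCm38.p6), read 5′ to 3′ on the gene's strand, with every CANNTG word, the E-box that bHLH proteins such as Neurod2, Nhlh1 and Atoh1 can bind, in capitals. They are chr11:98329646-98329895 (minus strand) for Neurod2, chr11:33203589-33203838 (minus strand) for Tlx3 and chr6:64728875-64729124 (plus strand) for Atoh1.
Neurod2: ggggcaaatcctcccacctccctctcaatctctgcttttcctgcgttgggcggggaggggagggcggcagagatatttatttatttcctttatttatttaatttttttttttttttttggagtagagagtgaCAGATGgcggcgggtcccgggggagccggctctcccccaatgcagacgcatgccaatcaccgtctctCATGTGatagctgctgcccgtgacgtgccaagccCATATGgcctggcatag
Tlx3: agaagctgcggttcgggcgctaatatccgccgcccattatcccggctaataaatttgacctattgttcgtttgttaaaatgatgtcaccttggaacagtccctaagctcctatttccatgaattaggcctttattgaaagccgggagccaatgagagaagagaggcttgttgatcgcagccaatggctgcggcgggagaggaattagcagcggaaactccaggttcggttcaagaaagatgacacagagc
Atoh1: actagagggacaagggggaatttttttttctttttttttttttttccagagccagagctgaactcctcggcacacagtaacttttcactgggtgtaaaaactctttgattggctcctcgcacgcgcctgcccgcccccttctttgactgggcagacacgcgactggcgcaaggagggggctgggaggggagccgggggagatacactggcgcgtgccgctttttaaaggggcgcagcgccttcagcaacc

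The Neurod2 window holds 3 E-boxes: CAGATG starts 118 bases before the transcription start, CATGTG starts 51 bases before it and CATATG 17 bases before it, while those of Tlx3 and Atoh1 hold none. RefSeq promoters were matched for 9 of the 10 genes, at 11 start sites. Of the 9, taking the first start site listed for each, 6 had CANNTG, which reads the same on both strands, beside 66.2% of all 32851 promoter windows of the same length. CAGATG, one of the CANNTG words, searched on both strands, was present for Neurod2, Nhlh1 and Nhlh2, 3 of 9, beside 14.4% of all windows. CAGCTG, another, was present for Barhl1, 1 of 9, beside 13% of all windows. The Gli word TGGGTGGTC, searched on both strands, was in none of the 9 windows and in 0.225% of all. A word in a window is a description of its letters only. No source used here says which stretch of Neurod2 the transgene carries.

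**Figure D2:**
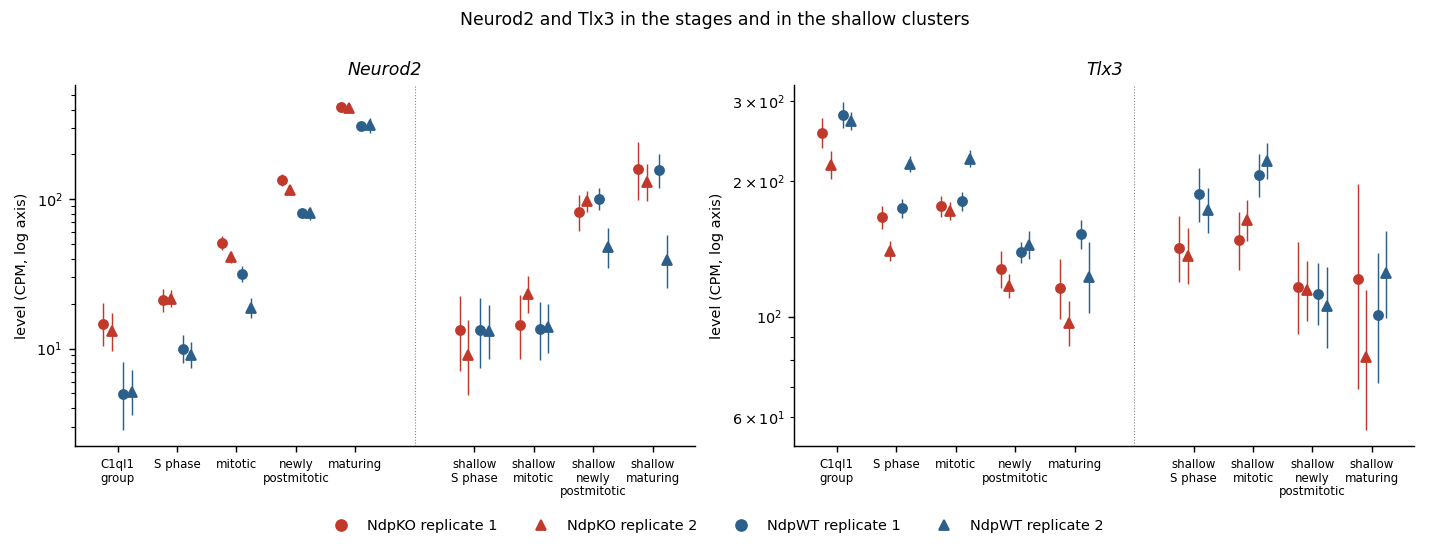
Level of Neurod2 and Tlx3 (CPM, log axis) per library in the 5 stages and, right of the dotted line, in the 4 shallow clusters, NdpKO in red left of NdpWT in blue, with 95% Poisson intervals that cover counting error only. In the 5 stages both NdpKO libraries lie above both NdpWT libraries for Neurod2 and below them for Tlx3, while in the shallow clusters the Neurod2 values overlap in 3 of 4.

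Tlx3 went the other way, lower in both NdpKO libraries than in both NdpWT libraries in each of the 5 stages, by small amounts. It had 166 and 139.8 CPM in NdpKO, against 174 and 218 CPM in NdpWT in S phase cells, a log2 change of -0.38 ± 0.15 (adjusted p = 0.999). Maturing neurons had 116 and 96.8 CPM in NdpKO, against 152 and 123 CPM in NdpWT, a log2 change of -0.42 ± 0.17 (adjusted p = 0.998). The values were 176 and 171 CPM in NdpKO, against 179.9 and 224 CPM in NdpWT in mitotic cells and 127 and 117 CPM in NdpKO, against 139 and 144 CPM in NdpWT in newly postmitotic neurons. In the C1ql1 group, mitotic cells and newly postmitotic neurons its log2 changes were -0.25 ± 0.15, -0.23 ± 0.14 and -0.24 ± 0.13, with adjusted p of 0.999, 1 and 1. The gaps were narrow: in mitotic cells NdpKO replicate 1 was within 5 CPM of NdpWT replicate 1. Among the 9 subclusters, Tlx3 was lower without overlap in 6, which include the C1ql1 group and the maturing neurons themselves. The subclusters share libraries and are not independent, and the share of all genes with this pattern was not computed. Among the 4 shallow clusters Tlx3 was lower in 2 and higher in 1.

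Barhl1 was higher in NdpKO by a similar factor in all stages, but much of this came from NdpKO replicate 1. In S phase cells it had 277 and 197 CPM in NdpKO, against 181 and 172 CPM in NdpWT, a log2 change of 0.39 ± 0.16 (adjusted p = 0.999). Mitotic cells had 217 and 173 CPM in NdpKO, against 148 and 159 CPM in NdpWT, a log2 change of 0.33 ± 0.15 (adjusted p = 1), and newly postmitotic neurons had 202 and 161 CPM in NdpKO, against 152 and 140.0 CPM in NdpWT, a log2 change of 0.28 ± 0.14. The genotypes did not overlap in these 3 stages and overlapped in the C1ql1 group and in maturing neurons. Without NdpKO replicate 1, the library of lower quality, the log2 changes were 0.11, 0.13, 0.17, 0.11 and -0.03 in the 5 stages.

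The other 7 genes all had adjusted p of at least 0.998, although some lay higher in NdpKO without overlap. In the C1ql1 group these were Neurod1, Nhlh1, Pax6 and Zic1. Neurod1 had 506 and 491 CPM in NdpKO, against 454 and 342 CPM in NdpWT there, a log2 change of 0.30 ± 0.16. Nhlh1 had 86.6 and 88.1 CPM in NdpKO, against 80.7 and 80.7 CPM in NdpWT and Pax6 469.9 and 443 CPM in NdpKO, against 443 and 363 CPM in NdpWT, with log2 changes of 0.09 ± 0.15 and 0.16 ± 0.16, and the gap for Pax6 was under 1 CPM. Atoh1 had log2 changes of -0.13 ± 0.15 in the C1ql1 group, -0.07 ± 0.15 in S phase cells and -0.02 ± 0.18 in mitotic cells, its 3 stages of highest level. In mitotic cells it averaged 56.3 ± 0.583 CPM in NdpKO and 56.6 ± 16.8 CPM in NdpWT (SD, n = 2 each). Insm1 had 0.10 ± 0.42 in mitotic cells, and averaged 474 ± 143 CPM in NdpKO and 433 ± 180.2 CPM in NdpWT there. Neurod1 had 0.11 ± 0.22 in newly postmitotic and 0.11 ± 0.18 in maturing neurons. In mitotic cells Neurod1 had 1079 and 867 CPM in NdpKO, against 1310.1 and 661 CPM in NdpWT, so that the NdpWT libraries lay outside the NdpKO pair on both sides. Nhlh1 and Nhlh2 had 0.12 ± 0.15 and 0.03 ± 0.19 in newly postmitotic neurons, their stage of highest level. In maturing neurons Nhlh1 had 211 and 127 CPM in NdpKO, against 132 and 135 CPM in NdpWT, with only NdpKO replicate 1 apart. Pax6 had 0.10 ± 0.13 in newly postmitotic and 0.10 ± 0.16 in maturing neurons. In newly postmitotic neurons Pax6 had 731 and 704 CPM in NdpKO, against 685 and 630.1 CPM in NdpWT, without overlap. Zic1 had log2 changes of 0.17 ± 0.15, 0.17 ± 0.15, 0.11 ± 0.15, 0.21 ± 0.14 and 0.20 ± 0.17 in the 5 stages. In newly postmitotic neurons Zic1 had 1383 and 1199 CPM in NdpKO, against 1100.0 and 1092 CPM in NdpWT, without overlap.

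**Figure D3:**
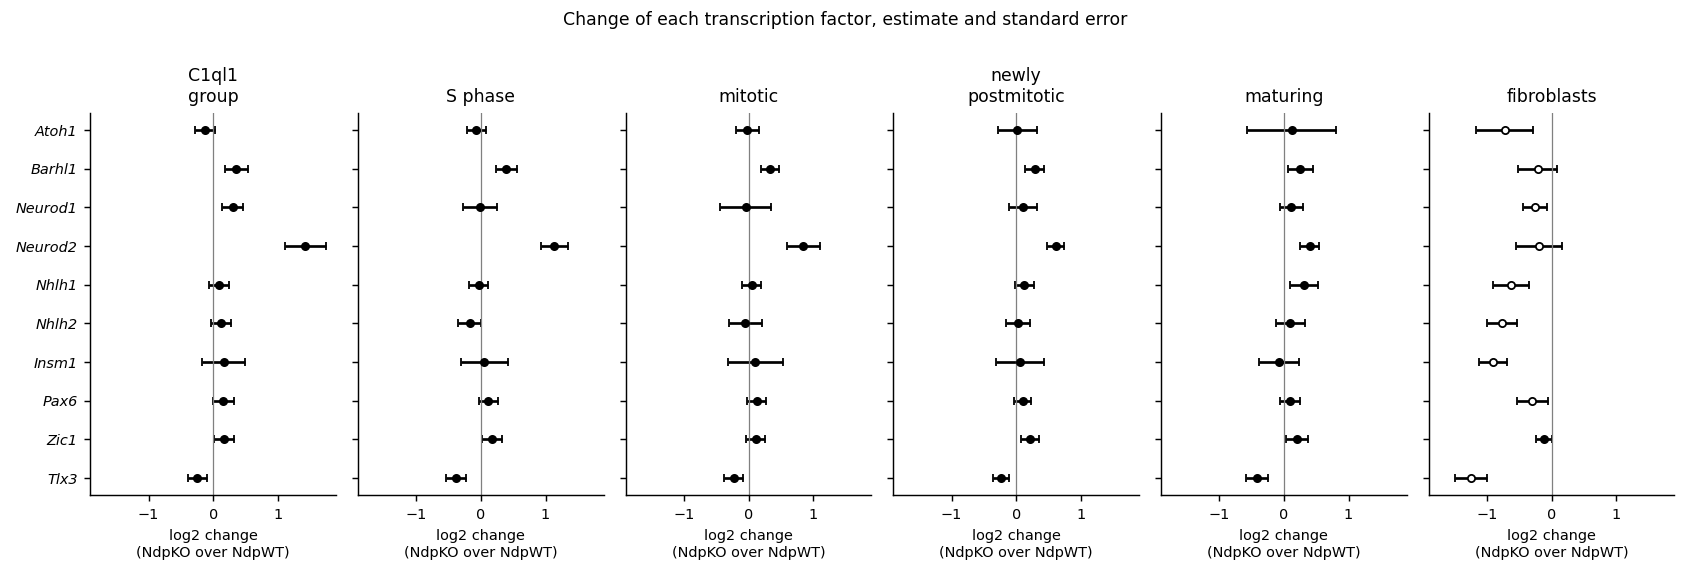
Log2 change of each gene, NdpKO over NdpWT, in 5 granule lineage stages and in fibroblasts, as the edgeR estimate (point) with its standard error (bar), n = 2 libraries per genotype. Open points in fibroblasts mark the 9 genes whose level there does not exceed their highest level in macrophages. Neurod2 lies furthest to the right in every stage, at 1.42 in the C1ql1 group and 0.40 in maturing neurons.

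Zic1 is the 1 gene of the 10 that fibroblasts of the meninges expressed well above background, and its level there did not differ detectably between genotypes. Fibroblasts (848 and 1496 NdpKO cells, 996 and 1776 NdpWT cells) had 377 and 339 CPM in NdpKO, against 393 and 378 CPM in NdpWT, a log2 change of -0.11 ± 0.12 (adjusted p = 0.806), with both NdpKO libraries slightly below both NdpWT libraries. Both fibroblast clusters had it, with 353 and 316 CPM in NdpKO, against 355 and 350.3 CPM in NdpWT in the one led by Ptgds and 440.4 and 385 CPM in NdpKO, against 429.9 and 404 CPM in NdpWT in the one led by Col15a1. Within each cluster the genotypes overlapped. The Ptgds cluster, lower in Zic1, held 571 and 918 NdpKO cells, against 459 and 782 NdpWT cells. The Col15a1 cluster held 277 and 578 NdpKO cells, against 537 and 994 NdpWT cells. The part of this makeup in the pooled Zic1 difference was not tested. Among fibroblasts thinned to 2000 UMIs the share with a Zic1 UMI was 53.5 and 48% in NdpKO, against 50.9 and 52.6% in NdpWT, and among macrophages 4.51 and 5.6% in NdpKO, against 6.29 and 7.98% in NdpWT. Unthinned, the fibroblast shares were 99.5 and 97.1% in NdpKO, against 97.3 and 96.5% in NdpWT, and thinning left out 2 and 5 NdpKO and 3 and 4 NdpWT fibroblasts. Mural cells, the contractile cells of vessel walls, had 249.9 and 238 CPM in NdpKO, against 307 and 268 CPM in NdpWT, lower without overlap but not tested. The cluster led by Ecrg4 had 309.7 and 289 CPM in NdpKO, against 268 and 292 CPM in NdpWT. Interneuron-like cells had 1028 and 944 CPM in NdpKO, against 878 and 840.3 CPM in NdpWT, without overlap, and endothelial cells 49.5 and 56 CPM in NdpKO, against 46.6 and 57.1 CPM in NdpWT.

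**Figure D4:**
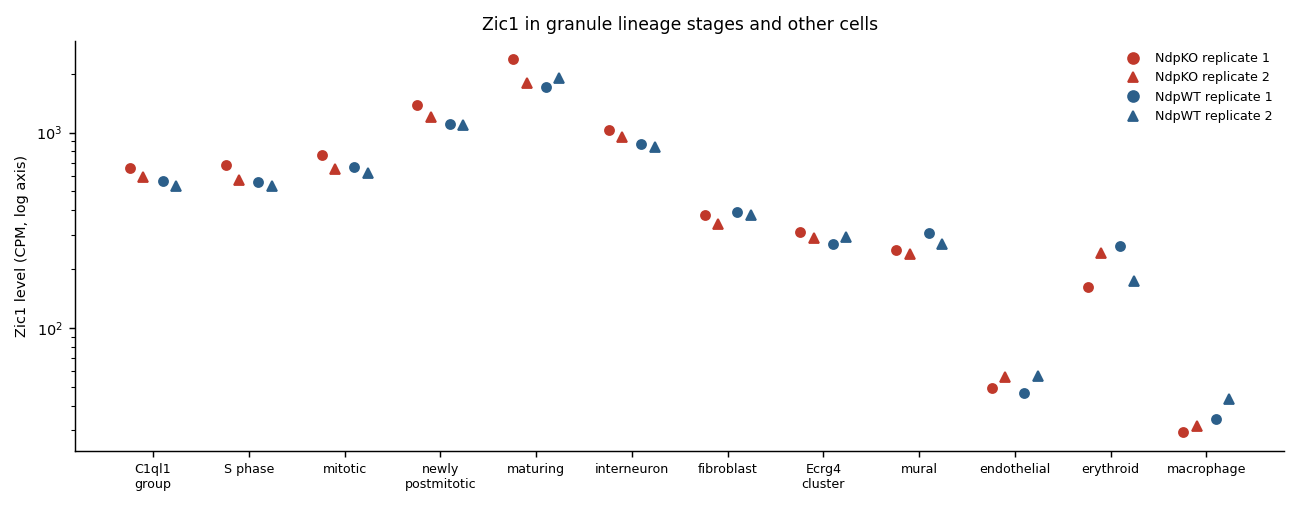
Level of Zic1 (CPM, log axis) per library in the 5 granule lineage stages and 7 other groups of cells, NdpKO in red left of NdpWT in blue, circles for replicate 1 and triangles for replicate 2. Fibroblasts, at 339 to 393 CPM, lie below every granule lineage stage and far above macrophages, at 29.3 to 43.4 CPM.

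The other 9 genes did not exceed in fibroblasts their highest level in macrophages, and the test called 0 of 10 there (0.0131% of all tested genes). At an unadjusted p under 0.05 it found 3 of 10 (9.97% of all tested genes), and DESeq2 called 1, Tlx3, beside 141 of all 15249 tested genes. All 10 had negative log2 changes, with a median of -0.46 beside 0.00 for all tested genes, and 6 of 10 lay lower without overlap (19.6% of all tested genes) and 0 higher (21.3%). Tlx3 had 2.19 and 2.88 CPM in NdpKO, against 5.11 and 6.84 CPM in NdpWT, a log2 change of -1.24 ± 0.25 (adjusted p = 0.163, and 0.0468 by DESeq2). With no filter on low counts the adjusted p of Tlx3 was 0.000606 (1.75% of genes called). Insm1 had 3.85 and 4.46 CPM in NdpKO, against 8.64 and 6.92 CPM in NdpWT, a log2 change of -0.91 ± 0.21 (adjusted p = 0.225), and passed with no filter on low counts (adjusted p = 0.00845). Macrophages, which should lack both, had 5.09 and 4.94 CPM in NdpKO, against 4.99 and 8.1 CPM in NdpWT of Tlx3 and 10.1 and 8.59 CPM in NdpKO, against 8.9 and 11.6 CPM in NdpWT of Insm1. In fibroblasts 16 maturing granule neuron markers summed to 108 and 136 CPM in NdpKO, against 159.5 and 156 CPM in NdpWT. Etv1, 1 of the 16, was itself high there, at an average log2 CPM of 6.42. Its log2 change was -0.45 ± 0.14 (adjusted p = 0.326), so this sum does not stand for neuronal RNA alone. Summed interneuron markers (8 genes) had 5.62 and 9.46 CPM in NdpKO, against 12 and 14.5 CPM in NdpWT. Markers of unipolar brush cells, another neuronal type, overlapped, with 10.6 and 13 CPM in NdpKO, against 12.1 and 16.6 CPM in NdpWT. The part of neuronal RNA in the fibroblast values was not tested.

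Smo, whose activated form the transgene encodes, overlapped between genotypes at both ends of the series. It had 72.3 and 76.9 CPM in NdpKO, against 53.9 and 85.8 CPM in NdpWT in the C1ql1 group, a log2 change of 0.06 ± 0.19 (adjusted p = 0.999). Maturing neurons, with the most Neurod2, had 18.4 and 28.4 CPM in NdpKO, against 19.2 and 35.4 CPM in NdpWT of Smo, a log2 change of -0.05 ± 0.33 (adjusted p = 0.998). No source used here says whether tags of the transgene reach the Smo count. Of 15 Hedgehog pathway and target genes, 14, 15, 15, 14 and 9 were tested in the 5 stages and 0 passed in either direction. Their median log2 changes were 0.01, 0.02, 0.01, -0.07 and 0.02. Gli3, a Gli factor that often acts as a repressor, had 43.3 and 27.7 CPM in NdpKO, against 15.5 and 21.8 CPM in NdpWT in S phase cells, a log2 change of 0.89 ± 0.23 (adjusted p = 0.6). Hhip, a Hedgehog-binding inhibitor and target gene, had 5.41 and 7.48 CPM in NdpKO, against 8.72 and 14.4 CPM in NdpWT in the C1ql1 group, with a log2 change of -0.88 ± 0.34. In S phase cells Gli1, the standard readout of Hedgehog signalling, had 63.8 and 42 CPM in NdpKO, against 40.7 and 49.6 CPM in NdpWT, and Ptch1, the Hedgehog receptor and target, had 246 and 202 CPM in NdpKO, against 208 and 273 CPM in NdpWT, both with overlap.

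Of 38 other transcription factors of the granule lineage, 33, 35, 34, 34 and 29 were tested in the 5 stages and 0 passed in either direction. Their median log2 changes were 0.03, 0.01, 0.05, 0.07 and 0.07. Id1, a BMP-responsive inhibitor of bHLH factors, had 26.7 and 25.4 CPM in NdpKO, against 57.9 and 39.8 CPM in NdpWT in the C1ql1 group, a log2 change of -0.91 ± 0.21 (adjusted p = 0.136). Its relative Id3 had 9.23 and 11.9 CPM in NdpKO, against 15.5 and 19.1 CPM in NdpWT in S phase cells, a log2 change of -0.72 ± 0.22 (adjusted p = 0.678). Meis1, a homeodomain factor of granule cells, had 372 and 361 CPM in NdpKO, against 228 and 292 CPM in NdpWT in newly postmitotic neurons, a log2 change of 0.48 ± 0.14 (adjusted p = 1). Of 18 postmitotic neuronal genes, 16 were tested in the C1ql1 group and 17 in each other stage, and 0 passed. Their median log2 changes were 0.14, -0.03, 0.00, 0.17 and 0.13. Fat2, a cadherin of granule cells, had 95.2 and 66 CPM in NdpKO, against 36.6 and 54.7 CPM in NdpWT in maturing neurons, a log2 change of 0.87 ± 0.24 (adjusted p = 0.998), without overlap. Of 24 transcription factors of meningeal fibroblasts 22 were tested in fibroblasts, 0 passed, and their median log2 change was -0.15. Prrx2, a homeodomain factor of mesenchyme, had 41.8 and 55.7 CPM in NdpKO, against 66.8 and 67.8 CPM in NdpWT, a log2 change of -0.47 ± 0.15 (adjusted p = 0.351).

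The genes whose levels ran most like each of the 10 were found over 13 groups of cells in 4 libraries, 52 points in all, among 12735 genes, with the 10 left out of one another's rankings. The points share libraries and depth, and Pearson's r on log2(CPM + 1) is given as a description. Atoh1 ran with Nxph3, Cdh20 and C1ql1 (r of 0.96, 0.95 and 0.95). Barhl1 and Tlx3 ran with each other (r of 0.97) and both with Nrn1 (r of 0.98 each). Barhl1 also ran with Pde1c and Islr2 (0.97 and 0.96), and Tlx3 with Otx2 and Col9a3 (0.97 each). Insm1 ran with Elavl2, E130114P18Rik and Lhx1 (0.97 each). Outside the 10, the nearest to Nhlh1 were St18, Srrm4 and Sult4a1 (0.98 each), and for Nhlh2 they were Brsk2, Stmn3 and Nsg2 (0.99, 0.98 and 0.98). Neurod1 ran with Ttc9b, Rbfox3 and Neurod6 (0.98 each), and Neurod2 with Snap91, Nyap2 and Trim67 (0.97 each). Pax6 ran with Sult4a1, Dlgap3 and Jakmip2 (0.99, 0.99 and 0.98), and Zic1 with Ptprs, Pnmal2 and Clip3 (0.98, 0.97 and 0.97). Among the 10 themselves Nhlh1 and Pax6 were the most alike pair (r of 0.98), closer than Nhlh1 was to any gene named beside it. Atoh1 and Neurod2, at opposite ends of the series, were the least alike pair among the 10 (r of 0.30).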

How the data were processed

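Single-cell libraries of 4 pools were made with 10x Genomics 3′ v3.1 chemistry after Dispase II digestion and 22% Percoll, per the labels' protocols. The deposited matrices hold UMI counts per gene and barcode, for which the authors ran Cell Ranger 6.1.2 on mm10, per the submitters' processing notes, with no normalization. Percoll and peeling may favour some cells. No source used here says whether stray RNA or doublets were removed.

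Kept barcodes had 500 or more genes, 1000 or more UMIs and no more than 10% mitochondrial counts (5696 and 10888 in NdpKO, 9320 and 12818 in NdpWT), and Scrublet calls (97 and 212 in NdpKO, 241 and 257 in NdpWT) were removed. These were 1.70% to 2.59% of the barcodes that passed these limits. The loading rate, assumed to be 0.8% per 1000 deposited barcodes, gives 10.3% to 15.3%, so doublets likely remain. Cells were clustered without the 10 genes (scanpy 1.11.5, 2000 variable genes, 30 components, 20 neighbours, Leiden resolution 1) and named where at least 3 fixed markers were among the 50 leading genes, with granule lineage cells (18637) clustered again. Clusters with a median under 2854 UMIs (the overall median was 8561), or with markers of another type over 3 times the usual sum, were set aside.

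Counts were summed per library and stage and tested with edgeR 4.0.16 (quasi-likelihood, TMM, filterByExpr minimum count 10, Benjamini-Hochberg over all genes tested, threshold 0.05) in R 4.3.3. CPM use plain totals, and log2 changes are NdpKO over NdpWT with TMM. The script was tested on simulated counts with known changes. P-values rest on 2 pooled libraries per genotype. In summed fibroblast counts, the only ones compared so, no pair of libraries agreed within sampling noise (chi-square over its degrees of freedom was 27.0 to 50.7). Intervals cover counting error at the 95% level only. The replicate number, not said to mark the litter match, was left out of the main fit. Named were all 10 genes, Smo and Ndp, the 3 genes most like each of the 10 among those with at least 10 CPM in a group, and of each list at most 4 genes of largest change per stage, of which some are given; Gli1 and Ptch1 were added as standard readouts. The genes and lists were chosen with earlier results of these data known.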

Additional observations from a re-analysis of the deposited data

Results flagged for a closer look

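Zic1 and Nhlh1 had genotype differences of opposite direction in the C1ql1 group and in fibroblasts, in each case with no overlap between genotypes. The difference between the cell types was not tested. Of all tested genes, 17.2% lay higher in NdpKO without overlap in the C1ql1 group and 19.6% lay lower without overlap in fibroblasts. Zic1 had 659 and 591 CPM in NdpKO, against 563 and 534 CPM in NdpWT in the C1ql1 group, higher in both NdpKO libraries, and 377 and 339 CPM in NdpKO, against 393 and 378 CPM in NdpWT in fibroblasts, lower in both, a log2 change of -0.11 there. The fibroblast difference held only for the pooled clusters. Within the cluster led by Ptgds, and within the one led by Col15a1, the genotypes overlapped for Zic1. Zic1 was also higher without overlap in S phase cells and newly postmitotic neurons, and overlapped in mitotic cells and maturing neurons. For Nhlh1 the genotypes overlapped in every stage but the C1ql1 group. Nhlh1 had 86.6 and 88.1 CPM in NdpKO, against 80.7 and 80.7 CPM in NdpWT in the C1ql1 group and 1.85 and 2 CPM in NdpKO, against 2.53 and 3.37 CPM in NdpWT in fibroblasts, a log2 change of -0.63 there, at a level close to that in macrophages (2.61 and 3.22 CPM in NdpKO, against 2.82 and 4.65 CPM in NdpWT).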

How the results depend on the processing

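Of 886 values of the 10 genes under alternative settings, 81 had the opposite sign to the main value. In 3 of these either value exceeded 2 SE: leaving out NdpWT replicates in turn, the log2 change ranged over -0.37 to 0.47 for Neurod1 in S phase cells, -0.47 to 0.58 for Neurod1 in mitotic cells and -0.37 to 0.37 for Nhlh2 in mitotic cells. In 18 values a gene passed the threshold that it had missed, for Neurod2 in granule stages and for Tlx3 and Insm1 in fibroblasts.

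The replicate number as a block is 1 such setting. Deviations of same-numbered libraries correlated at 0.18 to 0.29 across genes, but with only 2 pairs the numbers were not taken to pair the samples. With the block, Neurod2 had adjusted p of 0.00292 in the C1ql1 group, 5.39e-05 in S phase cells, 3.92e-05 in mitotic cells, 0.000736 in newly postmitotic neurons and 0.313 in maturing neurons, with log2 changes of 1.41 to 0.40. In fibroblasts Tlx3 had 0.00386 and Insm1 0.0174. The block called 91, 96, 83, 88 and 24 genes in the 5 stages and 632 in fibroblasts, 0.797%, 0.739%, 0.662%, 0.703%, 0.228% and 4.14% of those tested, against 9, 2, 3, 0, 0 and 2 without it.

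Counts of genes called moved with many settings. No filter on low counts gave 48, 52, 53, 28 and 20 in the stages, 403 in fibroblasts and 6 for the difference between maturing neurons and the C1ql1 group (2 in the main test). DESeq2 gave 0 in the C1ql1 group, 7 in mitotic cells, 141 in fibroblasts and 0 for the difference. No TMM factors gave 4 in the C1ql1 group, 0 in S phase and mitotic cells and 1 for the difference. Doublets removed to the loading rate gave 0 in mitotic cells, 1 in fibroblasts and 0 for the difference. Subclustering at resolution 0.5, which joined the C1ql1 group to S phase cells, gave 1 in mitotic cells and 0 for the difference, there taken between maturing neurons and S phase cells as the earliest stage left, and the stricter cell filter gave 11 in fibroblasts. Of the settings added after seeing the data, the shallow clusters gave 0 in S phase and mitotic cells, cells of 3000 to 20000 UMIs gave 5 in the C1ql1 group, 0 in mitotic cells and 33 in fibroblasts, and single fibroblast clusters gave 1 (Ptgds) and 16 (Col15a1). Leaving out 1 library at a time gave 18 to 93 in the C1ql1 group, 2 to 101 in S phase cells, 1 to 106 in mitotic cells, 0 to 90 in newly postmitotic neurons, 2 to 83 in maturing neurons, 31 to 380 in fibroblasts and 2 to 17 for the difference. A lone library was then assumed to vary like the others. The cause was not tested. Thinning to 2000 UMIs lowered shares of cells with a UMI beyond counting error in 194 of 200. Thinning can only remove UMIs from a cell, so this count says nothing about the difference between genotypes. Depth limits Neurod2 most in the C1ql1 group, with 38 and 49 UMIs in NdpKO, against 16 and 35 UMIs in NdpWT.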
